A study of Mus musculus with 12 samples.

Results

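The heat shock and DnaJ chaperone genes are the autosomal protein-coding genes of GENCODE mouse release M21 whose symbol is Dnaja, Dnajb or Dnajc followed by a number, those whose symbol starts with Hspa, Hspb, Hspd, Hspe, Hsph or Hsp90, and Hsf1 and Hsf2. The rule reads symbols only and uses no measured value. It found 76 genes among 20807 autosomal protein-coding genes, of which 45 belong to the Dnaja, Dnajb and Dnajc families and 31 to the others. Because it reads symbols, it also takes in Hspbp1 and Hspbap1, whose names start with Hspb although they are binding or associated proteins and not small heat shock proteins.

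MOF (KAT8) is a lysine acetyltransferase of histone H4, and its binding in visceral white adipose tissue was mapped by ChIP-seq, in which DNA bound to a protein is pulled down with an antibody and sequenced. Mof+/+ mice carried both copies of the Mof gene, and Mof+/- mice were heterozygous. The mice, C57BL/6 in the labels and backcrossed to C57BL/6J in the methods, were 8 weeks old and on a standard diet, and the labels give 12 libraries in 6 groups of 2, with MOF ChIP, input and histone H3 ChIP from each genotype, while the series' design text speaks of 3 Mof+/- animals. One peak list per genotype was analysed, so no value below has a replicate or a test, and differences between genotypes cannot be weighed against variation among mice.

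Chaperones hold unfolded protein chains and help them fold. HSP70 proteins (Hspa genes) bind and release such chains with the energy of ATP. J-domain proteins (the Dnaja, Dnajb and Dnajc genes) bring clients to HSP70 and trigger its ATP hydrolysis, and Hsph1 and the Hspa4 group act as nucleotide exchange factors for it. HSP90 proteins mature kinases and steroid receptors, the HSP60 and HSP10 pair (Hspd1 and Hspe1) folds proteins in mitochondria, and small heat shock proteins (Hspb genes) hold clients without ATP. Under proteotoxic stress the transcription factor HSF1 binds heat shock elements, which are repeats of GAA and its reverse complement, in the promoters of many of these genes.

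A promoter peak here is a peak whose edge lies within 1000 bp of any annotated transcript start of the gene. In the Mof+/+ list 55 of the 76 genes (72.4%, 95% Wilson interval 61.4 to 81.2) had one, against 42.7% of all autosomal protein-coding genes. In the Mof+/- list 2 genes (2.63%, 0.725 to 9.10) had one, Hspa8 and Hsp90ab1, against 1.37% of all genes. Both were also in the Mof+/+ list, and over all genes 1.34% had a promoter peak in both lists. The intervals cover counting error only and treat genes as independent, although some share a promoter. The share in the Mof+/+ list was thus above the background, while 2 genes in the Mof+/- list are too few to set apart from it, as the interval reaches from below the background to several times it.

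**Figure D1:**
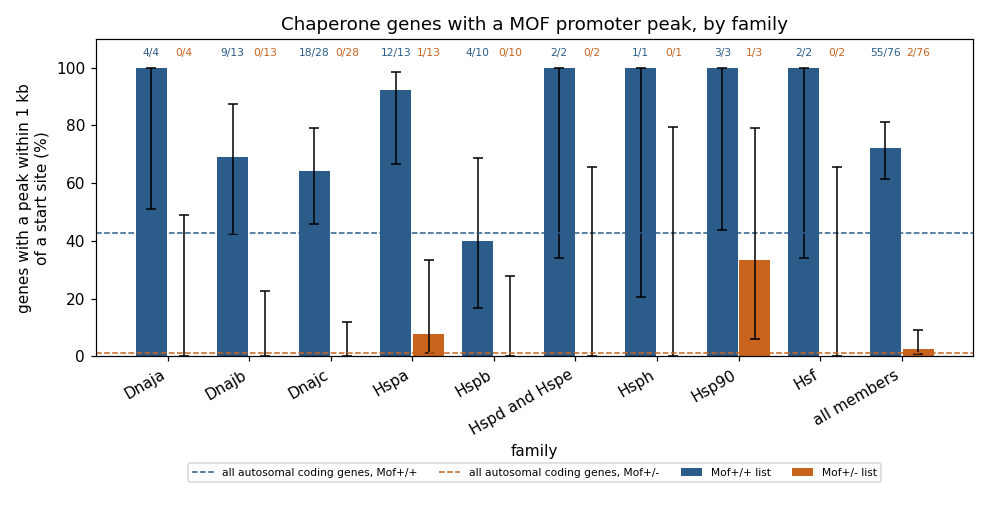
Bars give the percentage of genes in each family with a peak within 1 kb of a start site, in the Mof+/+ list (blue) and the Mof+/- list (orange), with 95% Wilson intervals and the number of genes above each bar. Dashed lines give the share of all autosomal protein-coding genes, 42.7% for Mof+/+ and 1.37% for Mof+/-; among the Mof+/+ bars the Hspb bar alone (4 of 10) ends below its line.

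The lists differed in depth. There were 19773 Mof+/+ peaks and 731 Mof+/- peaks. Fragments over a summit and the input background were recovered from the deposited fold enrichment and p-value, and the lowest background was 3.52 fragments for Mof+/+ and 2.26 for Mof+/-. A Mof+/+ summit held 16 fragments at the median and a Mof+/- summit 14, and the weakest peak had a −log10 p-value of 3.25 and 4.72, respectively. Of the defining genes of adipocytes listed for a check of the tissue, 6 of 12 (50%, 25.4 to 74.6) had a Mof+/+ promoter peak, near the 42.7% of all genes, and those without one were Lep, Cidec, Cidea, Fabp4, Pparg and Retn. Of genes of other cell types, 6 of 7 for B cells, 6 of 8 for T cells and 3 of 5 for mesothelial or progenitor cells had one, and 1 of 6 for macrophages and 1 of 5 for endothelium. Of these the interval excludes the share of all genes for B cells (48.7 to 97.4) and includes it for the other cell types. In the Mof+/- list 2 of these marker genes had a promoter peak, Pax5 of B cells and Pdgfra of progenitors. The chromatin came from whole minced tissue, and in such bulk samples fewer cells of a type cannot be told apart from less MOF per cell.

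Several chaperone promoters hold letters that match the elements read by stress factors, and their sequence is shown first because it places the peaks described below. Promoter windows from 250 bases before to 50 bases after the start were taken from RefSeq (GRCm38.p6), where 61 of the 76 genes matched with 78 windows. A heat shock element was searched as 3 units of GAA and TTC in alternation with any 2 bases between units, on both strands. It was found in 6 windows (7.69%) of 4 genes, Dnajb6, Hspd1, Hspe1 and Hsph1, against 0.516% of the 19174 windows of all genes. By gene this is 4 of 61 (6.56%) against 0.593%, and the 6 windows hold 3 places in the genome. All 4 genes had a Mof+/+ promoter peak, and Hspd1 and Hspe1 share their element and peaks. Over all genes matched, 44.1% of the 93 with the element had such a peak and 42.8% of those without it. Of the chaperone genes without the element 39 of 57 (68.4%) had one. The stretches below hold these matches in capitals.
Dnajb6, chr5:29735844-29735873, plus strand: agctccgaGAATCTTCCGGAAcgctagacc
Hspd1, chr1:55088053-55088082, minus strand: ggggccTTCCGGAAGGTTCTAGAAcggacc
Hspe1, chr1:55088053-55088082, plus strand: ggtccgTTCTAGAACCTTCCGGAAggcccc
Hsph1, chr5:149636287-149636308, minus strand: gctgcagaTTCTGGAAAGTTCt

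Hspd1 and Hspe1 are transcribed in opposite directions from one promoter, so their stretches are the same bases read from either strand, and the capitals span overlapping matches. The nearest Mof+/+ peak lay 211 bp away from the bases printed for this pair and 70 bp away from those of Hsph1, while those of Dnajb6 lay under a peak. The capitals of Hsph1 lie just downstream of the start. These are matches of letters and not sites shown to be bound.

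The endoplasmic reticulum (ER) stress element, CCAAT followed by any 9 bases and CCACG, was found in 3 windows (3.85%), against 0.136% of all windows. They belong to Hspa5, Hsp90b1 and Dnajc3, which encode the HSP70 of the ER (BiP), the HSP90 of the ER (GRP94) and a J-domain partner of BiP. All 3 genes had a Mof+/+ promoter peak, against 12 of 25 (48.0%) of all matched genes with the element and 42.8% of those without it. Of the chaperone genes without this element 40 of 58 (69.0%) had one. Their matches are in capitals below, and Hsp90b1 held 2, of which the one nearer to the start reads on the opposite strand.
Hspa5, chr2:34772020-34772049, plus strand: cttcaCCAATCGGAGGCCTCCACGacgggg
Hsp90b1, chr10:86705527-86705556, minus strand: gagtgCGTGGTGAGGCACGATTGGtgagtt
Hsp90b1, chr10:86705632-86705661, minus strand: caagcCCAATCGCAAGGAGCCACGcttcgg
Dnajc3, chr14:118937822-118937851, plus strand: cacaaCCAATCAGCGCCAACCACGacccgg

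Both stretches of Hsp90b1 lay under its Mof+/+ peak, whereas the nearest peak was 51 bp away from the bases printed for Hspa5 and 110 bp away from those for Dnajc3. The ER stress element holds the CCAAT box, which on its own was about as frequent in these windows (39.7%) as in all windows (37.5%).

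Most J-domain genes had a Mof+/+ promoter peak, against 42.7% of all genes. All 4 Dnaja genes had one, 9 of 13 Dnajb genes (69.2%) and 18 of 28 Dnajc genes (64.3%). With 45 J-domain genes together the share was 68.9%, and with the 31 other genes it was 77.4%. The interval for Dnajc (45.8 to 79.3) includes the share of Dnajb, and that for the 4 Dnaja genes runs from 51.0 to 100%, so the families are not set apart by these counts. With peaks up to a q-value of 0.001 the Dnajc share was 28.6%, below the 32.7% of all genes.

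Dnaja1, a cytosolic J-domain protein that works with HSC70, had the highest fold enrichment of all the chaperone genes. Its peak (chr4:40721088-40723259) was 2172 bp wide, covered the start, and had a fold enrichment of 7.30 with 32 fragments over a background of 3.52, at the 98.4 percentile of genes with a promoter peak. The lowest of the family was Dnaja4, with a fold enrichment of 2.88 from 12 fragments in a peak that began 127 bp from a start. Between them stood Dnaja2 at 4.20 and Dnaja3, the mitochondrial member, at 3.54. The bases upstream of Dnaja1, all of which lay under its peak and which hold 31 CpG sites, are printed as the promoter with the strongest signal, and those upstream of Hspb1, which hold 12 and had no peak within 20039 bp of a start, as a contrast.
Dnaja1, chr4:40722672-40722916, plus strand: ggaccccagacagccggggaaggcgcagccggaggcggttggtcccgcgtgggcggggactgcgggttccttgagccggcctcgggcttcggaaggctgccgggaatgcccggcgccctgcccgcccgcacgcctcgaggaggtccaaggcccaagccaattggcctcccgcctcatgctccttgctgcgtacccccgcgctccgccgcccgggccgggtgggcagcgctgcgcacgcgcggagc
Hspb1, chr5:135887669-135887918, plus strand: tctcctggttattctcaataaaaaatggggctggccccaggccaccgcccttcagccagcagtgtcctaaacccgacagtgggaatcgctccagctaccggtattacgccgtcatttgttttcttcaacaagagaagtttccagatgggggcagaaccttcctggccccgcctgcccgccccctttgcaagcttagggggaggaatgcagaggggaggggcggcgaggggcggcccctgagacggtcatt

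Among the Dnajb genes the range was narrow. Dnajb5 was the highest with a fold enrichment of 5.10 and Dnajb4 the lowest with 3.44, in a peak shared with Fubp1. Dnajb1, the main stress-induced J-domain partner of HSP70, had 2 promoter peaks, the stronger at 4.57, shared with Tecr. Dnajb9 and Dnajb11, both of the ER, stood at 3.58 and 3.76. The 4 genes without a peak were Dnajb3, Dnajb7, Dnajb8 and Dnajb13. Dnajb3, Dnajb7 and Dnajb8 are best known from testis, and Dnajb13 is an axonemal protein of cilia and sperm. A Mof+/+ peak with a fold enrichment of 6.81 (chr7:100499617-100504474) overlapped the 3′ end of Dnajb13 and reached past it, 7307 bp from the nearest start of the gene.

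The Dnajc genes ran from a fold enrichment of 2.43 to 6.62. Dnajc5, which encodes the synaptic vesicle protein CSPα and is also made outside neurons, reached a fold enrichment of 6.62 with 30 fragments. Dnajc3 and Dnajc14 both stood at 5.53, and Dnajc25 at 5.09. At the other end stood Dnajc12, and Dnajc22 had 2.65, in a peak 850 bp from its start and from 11 fragments, as few as any peak over the lowest background of this list can hold. The median of the family, 3.30, was the lowest among the families with more than 2 genes, against 4.18 for Hspa. No promoter peak was listed at Dnajc5b, Dnajc5g, Dnajc6, Dnajc8, Dnajc19, Dnajc21, Dnajc24, Dnajc27, Dnajc28 and Dnajc30. Of these, Dnajc6 encodes auxilin, the neuronal partner of HSC70 in clathrin uncoating, and Dnajc19 a subunit of the mitochondrial import motor. Dnajc8, a splicing-associated protein, had the nearest peak of the group, 2085 bp from a start.

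**Figure D2:**
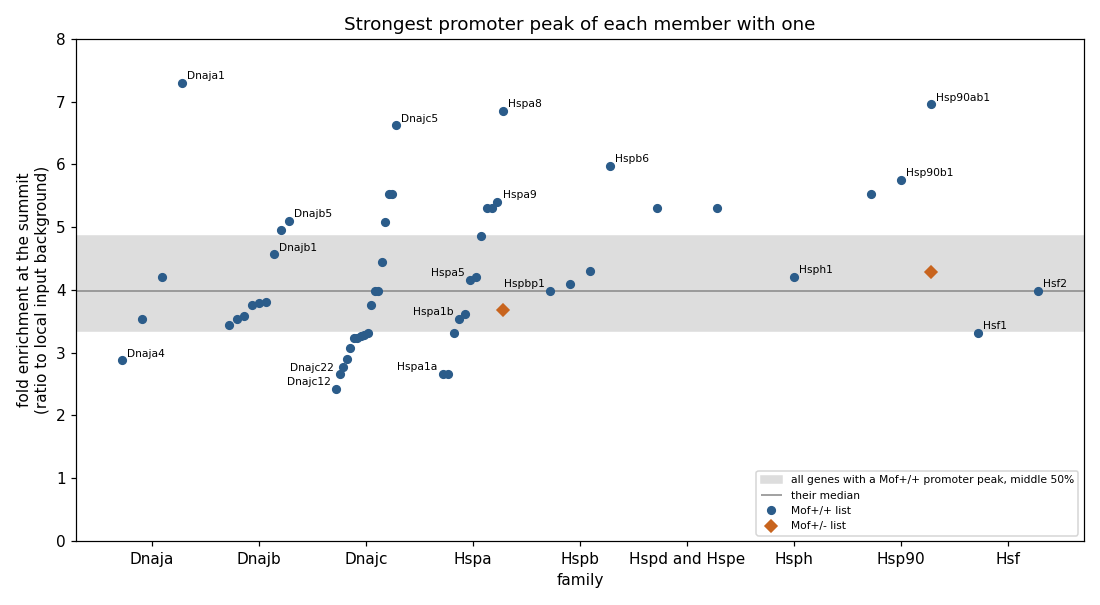
Each point is the fold enrichment (ratio of fragments at the summit to local input background) of the strongest promoter peak of a gene, by family, for the 55 genes with a Mof+/+ promoter peak (blue circles) and the 2 with a Mof+/- one (orange diamonds). The grey band is the middle 50% of all genes with a Mof+/+ promoter peak (3.34 to 4.87) around their median of 3.98; Dnaja1, Hsp90ab1, Hspa8 and Dnajc5 are the highest and Dnajc12 the lowest.

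The Hspa family had a Mof+/+ promoter peak at 12 of 13 genes (92.3%, 66.7 to 98.6), against 42.7% of all genes. Hspa12b, a distant relative best known from endothelium, was the exception. Hspa8 encodes HSC70, the constitutive cytosolic HSP70, and had the strongest peak of the family (chr9:40799197-40802170), 2974 bp wide, with a fold enrichment of 6.86 and 30 fragments. Hspa9, the mitochondrial HSP70 (mortalin), followed with 5.40. The exchange factors Hspa4 and Hspa4l both had 5.31, and Hsph1, of the same group, had 4.20 in a narrow peak of 426 bp. Hspa5, the BiP gene, had 4.16, with a summit in coding sequence. The nearest annotated start, 153 bp further along, is one inside the gene. The constitutive cytosolic gene thus stood above the ER gene in this list, by 30 fragments against 18.

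The stress-induced HSP70 genes were among the weakest of the family. Hspa1a and Hspa1b lie close together on chromosome 17 and encode nearly the same protein, and Hspa1l, a testis gene, starts close to Hspa1a on the opposite strand. Hspa1a had a fold enrichment of 2.66 from 12 fragments in a peak of 482 bp (chr17:34971951-34972432), and that peak also served Hspa1l, 271 bp from its start. Its value ranked at the 4.63 percentile of genes with a promoter peak. Hspa1b had 3.54 from 15 fragments in a peak of 1208 bp (chr17:34958792-34959999). The promoter windows of Hspa1a and Hspa1b share 296 of 300 bases (98.7%). In the 250 bases upstream of the starts 3 bases differ, shown in capitals below. All of these bases lay under the peaks.
Hspa1a, chr17:34972157-34972406, minus strand: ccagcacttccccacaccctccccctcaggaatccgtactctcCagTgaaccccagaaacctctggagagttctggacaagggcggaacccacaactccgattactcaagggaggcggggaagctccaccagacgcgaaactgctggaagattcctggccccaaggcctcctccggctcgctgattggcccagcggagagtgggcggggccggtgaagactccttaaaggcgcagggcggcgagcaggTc
Hspa1b, chr17:34959239-34959488, minus strand: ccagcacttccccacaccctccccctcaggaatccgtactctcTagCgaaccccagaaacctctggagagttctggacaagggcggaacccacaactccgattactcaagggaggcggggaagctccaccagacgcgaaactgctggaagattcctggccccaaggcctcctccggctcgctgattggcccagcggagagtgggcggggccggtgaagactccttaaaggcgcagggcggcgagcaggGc

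Reads from bases that both copies share cannot be placed by sequence alone. The methods name the default paired-end settings of the snakePipes pipeline without stating how such reads were treated, so the values of these genes are uncertain. The exact heat shock element described above is not among the letters of these windows, which says nothing about binding of HSF1.

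All 3 Hsp90 genes had a Mof+/+ promoter peak (interval 43.9 to 100%), against 42.7% of all genes. All 3 were above the upper quartile of all genes with one (4.87), against 21.3% of those genes. Hsp90ab1, the constitutive cytosolic HSP90β, had a fold enrichment of 6.96 with 35 fragments, the most of any chaperone gene, in a peak of 2695 bp (chr17:45572261-45574955). Hsp90b1, of the ER, had 5.75 in a peak shared with Ttc41, and Hsp90aa1, the stress-induced HSP90α, had 5.53.

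Hspa8 and Hsp90ab1, the constitutive cytosolic HSP70 and HSP90 genes, were the chaperone genes with a promoter peak in the Mof+/- list. At Hspa8 the Mof+/- peak (chr9:40801612-40802016) was 405 bp wide, with a fold enrichment of 3.68, 11 fragments over a background of 2.26 and a −log10 q-value of 1.50. Its edge lay 151 bp from a start and its summit fell in coding sequence. At Hsp90ab1 the Mof+/- peak (chr17:45573458-45573769) was 312 bp wide, with a fold enrichment of 4.29, 13 fragments and a −log10 q-value of 2.69, and it lay 187 bp upstream of the nearest start. Both Mof+/- peaks lay within the Mof+/+ peak of the same gene, but their summits were 569 bp and 559 bp away from the Mof+/+ summits. At the Mof+/- background, the Mof+/+ summits would hold 19.3 fragments at Hspa8 and 22.5 at Hsp90ab1 (their counts multiplied by 0.642, the ratio of the lowest backgrounds), against 11 and 13 listed at the Mof+/- summits.

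These are few fragments. Exact 95% Poisson intervals, which cover counting error only and take fragments as independent, run from 20.2 to 42.8 for the Mof+/+ summit of Hspa8 and from 5.49 to 19.7 for its Mof+/- summit. For Hsp90ab1 they run from 24.4 to 48.7 and from 6.92 to 22.2. These intervals belong to the counts as listed, not scaled to a common background, so a gap between them also holds the difference in depth. The summits of the 2 lists are not at the same place, so the counts are given side by side. Neither Mof+/- peak reached a q-value of 0.001, and that of Hspa8 did not reach 0.01.

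The mitochondrial pair Hspd1 (HSP60) and Hspe1 (HSP10) had the same 2 Mof+/+ peaks, one at chr1:55086885-55087842 with a fold enrichment of 5.31 and one at chr1:55088361-55088646 with 4.42. The gap between them was 518 bp. It held start sites of both genes and the heat shock element printed above. In the Mof+/- list the nearest peak to Hspe1 was 1884.95 kb away.

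Hspd1 and Hspe1 were among 9 genes (11.8% of the 76) with a start site that no Mof+/+ peak covered and that had a peak within 1000 bp on each side, against 4.16% of all genes. Among genes with a Mof+/+ promoter peak the shares were 16.4% and 9.74%. No interval was computed for these shares, and the count was added after the values were seen, so they are not set apart. The others were Dnajb1, Dnajb2, Dnajb6, Dnajb11, Dnajc9, Dnajc11 and Hsp90aa1. Hspd1 and Hspe1 count separately here although they share both peaks. Dnajc11 had no Mof+/+ promoter peak when only starts of protein-coding transcripts were used. The gap ran from 271 bp at Hsp90aa1 to 1532 bp at Dnajc11, and at Dnajb1 it was 429 bp. The downstream peak was the stronger at Dnajb1 (4.57 against 2.74), Dnajb11 (3.76 against 2.73), Dnajc9 (3.27 against 2.71), Hspd1 (5.31 against 4.42) and Hsp90aa1 (5.53 against 2.88), and the upstream peak at Dnajb2, Dnajb6, Dnajc11 and Hspe1.

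**Figure D3:**
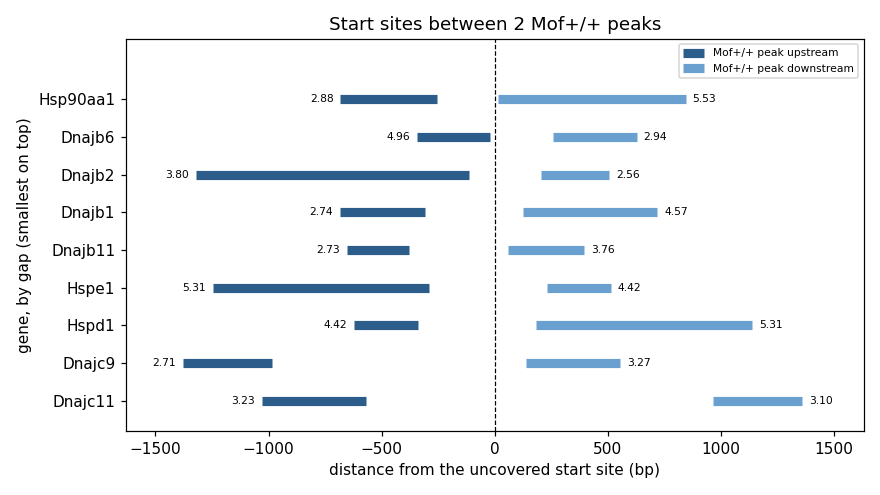
Horizontal bars give the nearest upstream (dark blue) and downstream (light blue) Mof+/+ peaks of the 9 genes with an uncovered start site between 2 peaks, in bp from that start site in the direction of transcription, with the fold enrichment of each peak beside it. Gaps run from 271 bp at Hsp90aa1 to 1532 bp at Dnajc11, and Hspd1 and Hspe1 show the same 2 peaks in mirror image.

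Of the small heat shock genes 4 of 10 (40.0%, 16.8 to 68.7) had a Mof+/+ promoter peak, and without Hspbp1 and Hspbap1 the count was 2 of 8 (25.0%). The interval includes the background of 42.7%. With peaks up to a q-value of 0.001 it was still 40.0%, above the 32.7% of all genes and the 28.6% of Dnajc, and the genes other than Hspbp1 and Hspbap1 remained at 2 of 8 (25.0%), below both. Hspb6 (HSP20), known from smooth muscle and adipose tissue, had the strongest peak of the family, with a fold enrichment of 5.97 in a peak shared with Proser3. Hspb9, a testis gene, had 4.30, Hspbap1 had 4.09 in a peak shared with Dirc2, and Hspbp1, an exchange factor for HSP70, had 3.98. Hspb1 (HSP27), the most widely made small heat shock protein, had no promoter peak in either list. Hspb2, Hspb3, Hspb7, Hspb8 and Hspb11 had none either. Hspb2, Hspb3 and Hspb7 are muscle genes, and Hspb11 encodes a ciliary transport protein.

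Both heat shock factor genes had a Mof+/+ promoter peak, but the interval (34.2 to 100%) includes the 42.7% of all genes. Hsf2 had a fold enrichment of 3.98 in a narrow peak of 279 bp, and Hsf1 had 3.32 in a peak of 459 bp that it shared with Bop1. Both values were at or below the median of all genes with a promoter peak.

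As a group, the chaperone genes with a Mof+/+ promoter peak had the same median as other genes with one. Their median fold enrichment was 3.98 (interquartile range 3.32 to 5.21) and that of the 8894 genes with a promoter peak was also 3.98 (3.34 to 4.87). Of the 55 genes, 17 (30.9%) were above the upper quartile of all such genes, against 21.3% of those genes themselves, as many values are tied at it. No interval was computed for this share, which counts the peak of Hspd1 and Hspe1 for both, so it is not set apart from 21.3%. Median width was 830 bp against 839 bp. The start site lay inside the strongest peak for 42 genes (76.4%) against 74.3%, and the summit lay downstream of the start for 33 (60%) against 60.1%. The start is here the nearest annotated one, which can lie inside the gene, so a summit upstream of it can still be within the gene. The summit fell in an intron of the gene for 17 genes, in a UTR for 13, in coding sequence for 9, in a noncoding exon for 3 and outside the gene for 13. A peak was shared with the promoter of another coding gene at 20 genes (36.4%) against 26.1%, and 4 of the 20 share it with each other, Hspa1a with Hspa1l and Hspd1 with Hspe1. The strongest peaks of the 55 genes were 53 different peaks.

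**Figure D4:**
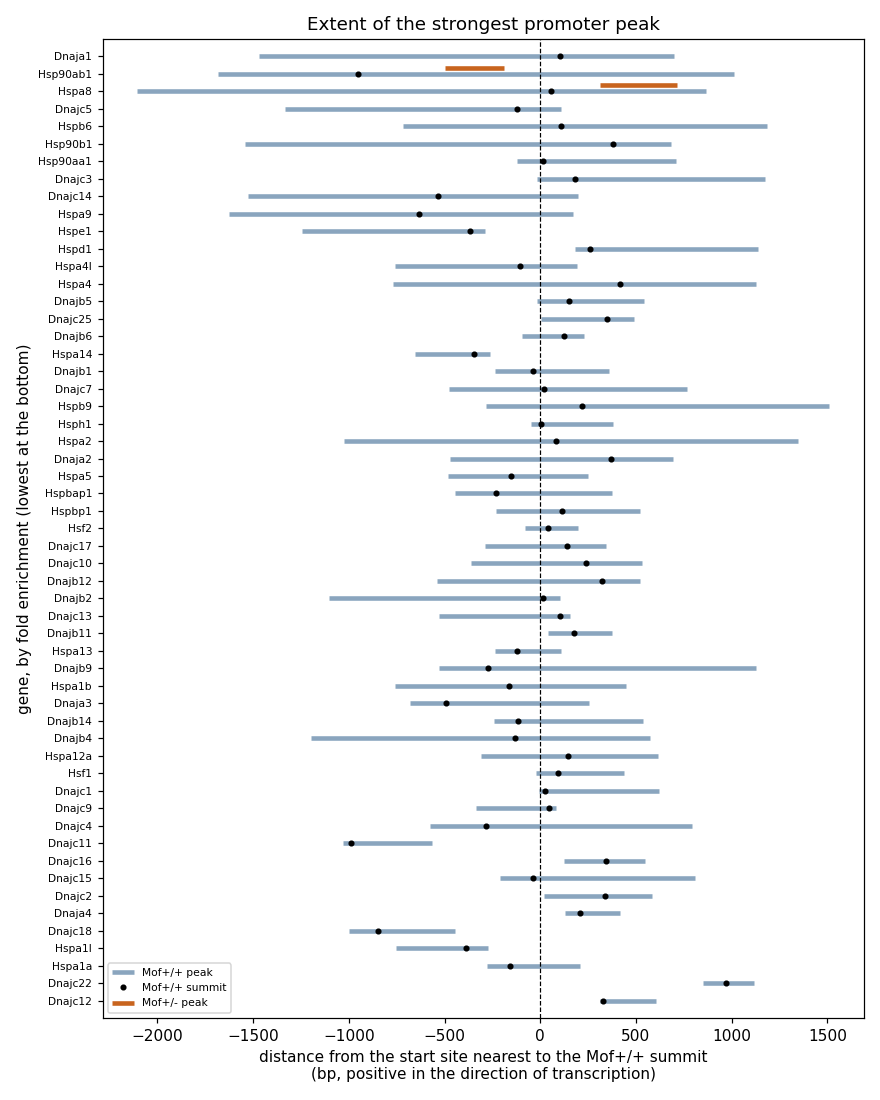
Each horizontal bar is the extent of the strongest Mof+/+ promoter peak of a gene in bp from the start site nearest to its summit, positive in the direction of transcription, with the summit as a black point, for 55 genes ordered by fold enrichment. Orange bars are the Mof+/- peaks of Hsp90ab1 and Hspa8, which lie within the Mof+/+ peaks, and 42 of the 55 peaks cover the start site.

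The chaperone genes had more CpG sites at their starts than other genes, and the share with a Mof+/+ promoter peak rose with them. Sites were counted within 500 bp on either side of the start of the principal transcript, which all 76 genes had and 85 of the other genes lacked, so the shares by CpG content cover 20722 genes. The median was 70 sites, against 45 for all genes, 77 for the chaperone genes with a Mof+/+ promoter peak and 38 for those without. By number of sites, 0 of 3 genes with under 20 had a peak (9.68% of all genes in that range) and 12 of 21 with 20 to 49 (57.1% against 36.2%). Of the CpG-rich genes, 19 of 24 with 50 to 79 sites had one (79.2% against 65.3%) and 24 of 28 with 80 or more (85.7% against 74.7%). Weighted to the CpG ranges of the chaperone genes, the share over all genes would be 58.5%, which lies between the background of 42.7% and the 72.4% measured and is below the interval of the latter. The 4 families with 10 or more genes had a median of 35 sites in Hspb, 59.5 in Dnajc, 77 in Dnajb and 79 in Hspa. Their shares with a peak came in the same order at the authors' threshold, but not at a q-value of 0.001 or under the scaling described below, where Dnajc was below Hspb. Dnajc21 and Hspb11 had 106 and 84 sites and no peak, while Dnajc12 had a peak with 31.

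**Figure D5:**
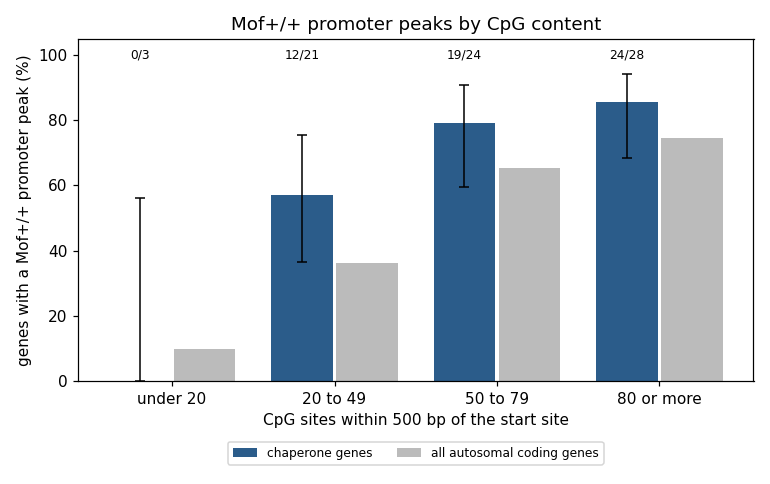
Bars give the percentage of genes with a Mof+/+ promoter peak by the number of CpG sites within 500 bp of the start site, for the chaperone genes (blue, with 95% Wilson intervals and counts above) and all autosomal protein-coding genes (grey). The blue bar is above the grey one in each range but the lowest, where 0 of 3 chaperone genes had a peak.

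The lists were also set at a common threshold. At the p-value of the weakest Mof+/- peak, 49 chaperone genes (64.5%) kept a Mof+/+ promoter peak, against 37.4% of all genes, and those lost were Dnaja4, Dnajc12, Dnajc18, Dnajc22, Hspa1a and Hspa1l. When the Mof+/+ fragments and background were also scaled by 0.642, a choice made after seeing the data, 28 genes (36.8%) were left, against 22.6% of all genes. The Mof+/- list held 2 (2.63%) against 1.37% of all genes. Hspa1b, Hsf1 and Hsf2 were among those the scaling removed. Depth and genotype differ together between the 2 lists and cannot be told apart.

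Other genes of protein folding, outside the symbol rule, were taken from lists by role. Of 87 such autosomal genes, 70 (80.5%, 70.9 to 87.4) had a Mof+/+ promoter peak and 3 (3.45%) a Mof+/- one, against 42.7% and 1.37% of all genes. That background was not weighted to their CpG content. Many of them are CpG-rich, and of all genes 65.3% with 50 to 79 sites and 74.7% with 80 or more had a Mof+/+ promoter peak. Among partners of HSP70 and HSP90, 14 of 15 HSP70 cochaperones and exchange factors and 14 of 16 HSP90 cochaperones had a Mof+/+ promoter peak, with Tomm70a, a mitochondrial import receptor, highest in the first list (4.87) and Chordc1 in the second (5.09). All 14 ER folding factors had one, led by Manf at 5.31. So did 8 of 10 mitochondrial chaperones and proteases, led by Htra2 at 5.97 in a peak shared with Aup1. The cytosolic chaperonin had 6 of 8, led by Cct7 at 5.84 in a peak shared with Pradc1. Prefoldin had 3 of 7, led by Uri1 at 5.10. Of other DnaJ-domain and small heat shock genes 2 of 6 had one. Gak, the auxilin of most tissues, led at 4.57 in a peak shared with Tmem175.

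The highest values among these genes belonged to regulators of the unfolded protein response and related stress pathways. Of 11 other heat shock factors and regulators, 9 had a Mof+/+ promoter peak. Atf4, a transcription factor that is made when translation initiation is reduced, had 7.87, and Ern1, the ER sensor IRE1α, had 7.30. Ddit3 (CHOP) had 7.08 in a peak shared with Mbd6, and Xbp1, whose RNA is spliced by IRE1α, had 6.75. In the Mof+/- list, promoter peaks were listed at Atf4 with a fold enrichment of 3.78, at Unc45a, an HSP90 cochaperone, with 4.29, and at Pfdn4, a prefoldin subunit, with 5.25 in a peak shared with Cyp24a1.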

How the data were processed

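ChIP-seq of MOF in visceral white adipose tissue was read from 2 peak lists, 1 per genotype, and the labels give 2 MOF ChIP libraries per genotype, with age 8 weeks. Whether and how these libraries were combined in a list is not given in the sources used here, and the lists were assigned to a genotype by the names the authors gave them. Per the study's methods, the authors fragmented chromatin by sonication and by digestion with CviKI-1, a restriction enzyme with short sites, mapped reads to GRCm38 and called peaks with MACS2 (version 2.1.1.20160309.3 in the submitters' processing notes and the methods) against input at a q-value of 0.1. The methods also describe joining peaks up to 1000 bp apart, but 3796 pairs of neighbouring Mof+/+ peaks and 148 of Mof+/- peaks still lay that close, so the lists here were not joined in this way. Fragment ends depend partly on local sequence. The deposited fold enrichment is a ratio of fragments at the summit to local input background. The authors' caller also gave the deposited −log10 p-value and the −log10 q-value at each summit. The summit position is another deposited value of that caller, used as a coordinate. The display score, also deposited by the authors, was not used. H3 and input libraries were not analysed here.

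Genes and starts came from GENCODE M21, coordinates count from 1, and promoter windows came from RefSeq (GRCm38.p6). A promoter peak had its edge within 1000 bp of any annotated transcript start, and a gene with several was given the one with the highest fold enrichment. Fragments and background were recovered by solving MACS2's fold enrichment (with 1 added to both counts) and Poisson p-value together for a whole number, with a tolerance of 0.002 on the −log10 scale, which succeeded for 19771 of 19773 Mof+/+ and 730 of 731 Mof+/- peaks. The lists give no library totals. The main shares with a promoter peak carry 95% Wilson intervals. No test between genotypes was possible with 1 list each.

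The genes, role lists and cell type markers were chosen with earlier results of these data known. Named in the text are the genes with a Mof+/- promoter peak, the highest and lowest of each family, the best-known heat shock genes, and those without a Mof+/+ promoter peak. In the role lists they are the highest of each list and those with a Mof+/- promoter peak; the other genes given with a value or as examples (Dnaja2, Dnajc3, Dnajc14, Dnajc25, Hspa4, Hspb9, Ern1 and the like), and the count of start sites between 2 peaks, were added after the values were seen. Of the listed role genes, 4 (Cct6a, Uxt, Vbp1 and Wbscr18) and the marker Ighm were not used, as no autosomal protein-coding gene of that symbol was matched. For 15 genes no promoter window was matched: Dnajc2, Dnajc5, Dnajc5b, Dnajc11, Dnajc12, Dnajc18, Dnajc22, Dnajc30, Hsf1, Hsp90aa1, Hsp90ab1, Hspa8, Hspa9, Hspa13 and Hspb2. Assignment and recovery were tested on simulated data. Python 3.11.15, pandas 2.3.3, scipy 1.17.1 and pysam 0.24.0 were used. Alternatives were 9 planned settings of window, distance, threshold and assignment and 1 added after seeing the data.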

Additional observations from a re-analysis of the deposited data

Results flagged for a closer look

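Of 15 relatives outside the symbol rule, which are processed pseudogenes of chaperone genes and Hsf3, a single one had a peak within 1 kb of its gene. Hspe1-ps5, a pseudogene of the HSP10 gene on chromosome 2, had a Mof+/+ peak at chr2:72954611-72954906 with a fold enrichment of 3.07, and none of the 15 had a Mof+/- peak. It stands here because these relatives enter no comparison above. Whether the peak belongs to the pseudogene or to other sequence nearby was not tested.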

How the results depend on the processing

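Of 195 values of shares, counts and median fold enrichment under the alternatives, 181 stayed within the error of the value reported and 14 moved, all to lower values. The first count is no measure of robustness. It includes Mof+/- shares of 0%, which a stricter setting cannot lower, and families of few genes, whose intervals are very wide. With a q-value of at most 0.001, the Mof+/+ share of chaperone genes was 52.6% (all genes 32.7%) and that of Dnajc 28.6%, and the Mof+/- share was 0% for all chaperone genes, for Hspa and for Hsp90, so the number in both lists was 0. With a q-value of at most 0.01, Hspa8 was lost from the Mof+/- list, which left 0% of Hspa and 1 gene in both lists. With Mof+/+ summits scaled to the Mof+/- background, the alternative added after seeing the data, the Mof+/+ share was 36.8%, and it was 50% in Dnaja, 38.5% in Dnajb, 17.9% in Dnajc, 53.8% in Hspa and 0% in Hsf. That alternative and the stricter q-values hold fewer peaks by construction. Dnajc was below the share of all genes under the scaling (22.6%) and at 0.001 (32.7%), but not at 0.01. Windows of 500 bp and 3 kb, distance from the summit, coding transcripts only, gene bodies and assignment to the nearest start changed no more than 7 of the 55 genes, and the Mof+/+ share of chaperone genes as a whole stayed above that of all genes under each of the 10 alternatives. Assignment to the nearest start removed 7 genes, Dnajc17, Dnajc18, Dnajc25, Hsp90b1, Hspa12a, Hspa14 and Hspa1l. Of 144 values for the role lists, 135 stayed and 9 moved, with the same limits. Among those that moved were the ER folding factors, with 10 of 14 (71.4%) under assignment to the nearest start, against 36.4% of all genes. No paired analysis was possible because a single list stands for each genotype and its columns name no replicate. At the lowest background a listed summit held at least 11 fragments in either list, so a promoter without a Mof+/- peak is not shown to lack MOF.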
